A study of Rattus norvegicus with 8 samples.

Results

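The proteasome is the protease that degrades ubiquitin-tagged proteins in every cell, and its transcripts were followed in rat blood cells given 4 kinds of plasma. The genes were those whose symbol starts with Psm, a letter from a to g and a number, and that a probe set of the array measured under that symbol alone. They came to 46 of 14217 genes. All but 2 encode subunits, regulators or assembly factors of the proteasome. The exceptions, Psmc3ip and Psme3ip1, share the symbol only, since their products are named after the proteasome protein they bind and are not subunits.

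The reporter cells were peripheral blood mononuclear cells (PBMCs), a mix of lymphocytes and monocytes, taken from 2 healthy male Brown Norway (BN) rats, BN1 and BN2, of about 180 days. Cells of each donor (500000 per culture) were kept for 6 h in medium with 20% plasma and measured on 1 Affymetrix array per culture, 8 arrays in all. As control, plasma was pooled from 8 grown Sprague-Dawley (SD) rats kept in 21% oxygen as pups. The 5% IH and 10% IH plasmas were pools from 5 and 3 SD rats that had breathed 5% or 10% oxygen intermittently (intermittent hypoxia, IH) for 1 h a day on postnatal days 2 to 6. All SD plasma donors were adult males, bled at PD114 (postnatal day) after a night without food. Autologous BN plasma was the background, and the labels do not settle which of the donors' plasmas the autologous cultures received. Each SD plasma was pooled once. The spread in an SD group is thus that between cells of 2 donors, not between pools or plasma donors. In the autologous group it may also hold a difference between the donors' plasmas. The comparisons asked which transcripts in healthy reporter cells respond to plasma of adults that had IH as neonates, and how each SD plasma differs from the cells' own.

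A proteasome consists of a barrel of alpha and beta rings, in which some of the beta subunits cut peptide bonds, and a regulatory particle that recognises, unfolds and feeds in substrates. Interferon induces the immunoproteasome, which lymphoid cells also make without it. In it Psmb8, Psmb9 and Psmb10 take the place of the catalytic subunits Psmb5, Psmb6 and Psmb7, and Psme1 and Psme2 form an activator cap. Its peptides supply class I antigen presentation, and blood mononuclear cells are known to express it at high levels.

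All 46 genes were measured at log2 values from 6.31 to 11.60, with Psmg3 at the low end and Psme1 at the high end. Signals of different probe sets depend on their probes and were not compared with each other. The catalytic subunit Psmb6 and the activator Psme3 were on the array only on probe sets that carry several symbols, so that the exchange of Psmb6 for Psmb9 could not be followed from both sides. Of the members, 17 have a named pseudogene or like copy in RefSeq, whose transcripts may bind the same probes.

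Promoters of 3 members are shown as examples, and no result rests on them. Psme2 and Psmb7 were the members that met the study's criterion in any comparison. Psmb10, an immunoproteasome gene that met it in none, was picked for sharing a motif with Psme2. The other immunoproteasome genes, Psmb8, Psmb9 and Psme1, lack that motif in this stretch. Each run is the 250 bases before the gene's start, 5′ to 3′ on the gene's strand, from RefSeq on build GRCr8. Capitals mark GAAANNGAA, a core of the interferon-stimulated response element, in Psme2 and Psmb10, and CCAAT (or its reverse complement ATTGG) in Psmb7.
Psme2 (chr15:33052752-33053001, minus strand): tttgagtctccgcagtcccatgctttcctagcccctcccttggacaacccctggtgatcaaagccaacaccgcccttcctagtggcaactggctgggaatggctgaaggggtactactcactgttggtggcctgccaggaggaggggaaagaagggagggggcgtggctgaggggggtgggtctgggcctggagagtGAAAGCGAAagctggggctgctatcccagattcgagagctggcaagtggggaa
Psmb10 (chr19:50743293-50743542, minus strand): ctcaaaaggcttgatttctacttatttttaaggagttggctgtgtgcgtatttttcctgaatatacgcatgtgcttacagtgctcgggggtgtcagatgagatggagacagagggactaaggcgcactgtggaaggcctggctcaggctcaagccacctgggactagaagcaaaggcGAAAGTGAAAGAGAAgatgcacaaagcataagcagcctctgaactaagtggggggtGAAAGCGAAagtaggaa
Psmb7 (chr3:42827471-42827720, minus strand): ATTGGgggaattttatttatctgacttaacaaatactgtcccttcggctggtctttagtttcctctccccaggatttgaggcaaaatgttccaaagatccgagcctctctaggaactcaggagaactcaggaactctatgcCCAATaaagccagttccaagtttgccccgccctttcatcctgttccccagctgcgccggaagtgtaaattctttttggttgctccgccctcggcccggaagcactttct
The response element core began 53 bases before the start of Psme2, and 73, 67 and 17 bases before that of Psmb10, where the first 2 overlap. RefSeq promoters were found for 42 members. On either strand, the core was in 7 of these 42, 2 of them immunoproteasome genes (of 5), and in 8.12% of 33469 promoters of the same length. CCAAT was in 21 of the 42, or 50% of them, and in 34.0% of all promoters. TTCNNNGAA, the motif of interferon gamma-activated sites, was in 4 (of the immunoproteasome genes, only Psmb8) against 7.67% of all. TGACNNNGC, the antioxidant response element core, was in 6, Psmb5 among them, against 10.1%. These are matches of letters and show no binding.

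Immunoproteasome transcripts under 5% IH plasma lay close to their level under control plasma. Psmb8, which takes the place of Psmb5, measured 10.83 (BN1) and 10.76 (BN2) with control plasma and 10.86 and 10.79 with 5% IH plasma. Psmb9, which takes the place of Psmb6, measured 10.05 and 9.96 with control and 10.07 and 9.95 with 5% IH. In both genes the groups overlapped, and the step between donors was wider than that between plasmas. Psmb10, which takes the place of Psmb7, measured 9.25 and 9.25 with control and 9.27 and 9.26 with 5% IH. Of the activator, Psme1 measured 11.40 and 11.40 with control and 11.37 and 11.37 with 5% IH, and Psme2 measured 9.91 and 9.86 with control and 9.90 and 9.84 with 5% IH. The 5 log2 ratios of 5% IH to control ran from -0.029 (Psme1) to 0.030 (Psmb8), with a median of 0.0012.

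**Figure D1:**
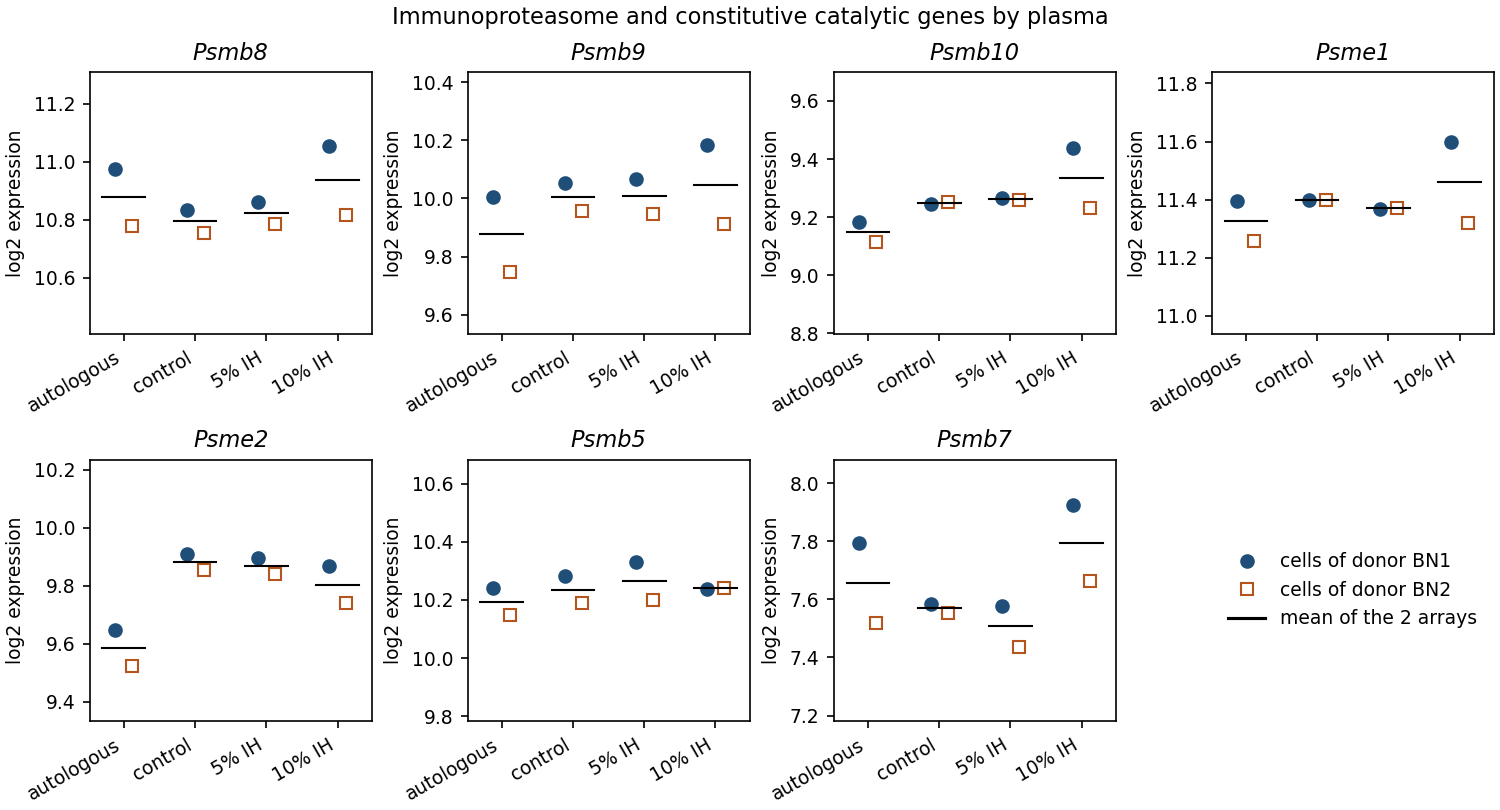
Log2 expression (vertical axis, of equal height in every panel) of 5 immunoproteasome genes and 2 constitutive catalytic genes, by plasma (horizontal axis). Filled circles are cells of donor BN1, open squares cells of BN2, and lines the mean of the 2 arrays. Psme2 was lower with autologous plasma (9.65 and 9.52) than on every array with SD plasma, and the BN1 array with 10% IH plasma was the highest for Psmb8, Psmb9, Psmb10, Psme1 and Psmb7.

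None of the 46 members met the study's criterion with 5% IH plasma against control. The criterion asks for a Rank Product p under 0.05, from ranks of the between-array ratios, and a log2 ratio beyond 0.263 (1.2-fold) in either direction. Over all genes, 2.5% met it. The ratios of the members ran from -0.062 (Psmb7) to 0.13 (Psmc1, an ATPase of the regulatory particle's base), and their median was 0.0093. Their median absolute log2 ratio was 0.0223, against 0.0498 over all genes and 0.0345 over the 7176 genes at least as bright as the dimmest member. For 30 of the 46, limma's 95% interval of the ratio lay wholly inside 0.263 in both directions. That was so for 32.1% of all genes and for 50.3% of those as bright. Among those whose interval reached past it were Psmb8 (-0.22 to 0.28) and Psmb9 (-0.28 to 0.29), whose intervals do not exclude a change of 1.2-fold. In limma, with p-values adjusted by Benjamini-Hochberg across the whole table, 0 members had an adjusted p under 0.05, and 0 an unadjusted one.

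By role, the largest absolute ratio of 5% IH to control was 0.058 among the 7 alpha ring genes, 0.047 among the 4 structural beta genes, 0.045 among the 14 non-ATPase genes of the regulatory particle and 0.038 among the 4 assembly chaperones. The non-ATPase group holds scaffold and ubiquitin-binding subunits such as Psmd2 and Psmd4, the deubiquitinase Psmd14, and the base assembly factors Psmd5, Psmd9 and Psmd10. Of the constitutive catalytic genes, Psmb5 measured 10.28 and 10.19 with control and 10.33 and 10.20 with 5% IH. Psmb7 measured 7.59 and 7.55 with control and 7.58 and 7.44 with 5% IH. Psmc1, with the largest ratio, measured 8.42 and 8.35 with control and 8.62 and 8.41 with 5% IH: it was higher in cells of both donors, by 0.19 and 0.060, and the limma interval of its ratio was -0.10 to 0.36.

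With 10% IH plasma no member met the criterion against control, where 4.3% of all genes did. Of the 46, 32 had a ratio above 0 in BN1 cells and 22 in BN2 cells. Over the 46, the median log2 ratio was 0.106 in BN1 and -0.0042 in BN2, and 0.039 for the means of both donors (all genes -0.0012). Over the 5 immunoproteasome genes it was 0.194 in BN1 and -0.046 in BN2. Psmb8 measured 11.05 in BN1 and 10.82 in BN2 with 10% IH, a ratio to control of 0.14 (standard error 0.112). Psmb9 measured 10.18 and 9.91, Psmb10 9.44 and 9.23, and Psme1 11.60 and 11.32, with ratios of 0.042, 0.087 and 0.060. In these 3 genes the BN1 culture was above and the BN2 culture below both control cultures. Psme2 measured 9.87 and 9.74, below control in both donors, by 0.042 and 0.12.

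The largest ratios of 10% IH to control were those of Psmb7 and Psma7, each 0.22 and under the fold threshold. Psmb7, a constitutive catalytic subunit, measured 7.92 and 7.66 with 10% IH, above both control arrays (standard error 0.126). Psma7, an alpha ring subunit, measured 10.35 and 10.37 with control and 10.71 and 10.45 with 10% IH, so that BN1 was higher by 0.37 and BN2 by 0.082. The limma intervals of both ratios include 0 (-0.063 to 0.51 for Psmb7 and -0.019 to 0.47 for Psma7). The lowest ratio was that of Psmd14 at -0.13, with a limma interval of -0.35 to 0.079 that includes 0. Psmd14 measured 9.29 and 9.13 with control and 9.09 and 9.06 with 10% IH. A second Psmd14 probe set (mean log2 value 8.75, against 9.14 for the one used) had a ratio of 0.073, in the other direction. In limma the lowest adjusted p of a member was 0.920, and 0 members had an unadjusted p under 0.05. The interval lay inside the fold threshold for 17 members, none of them of the immunoproteasome, against 22.8% of all genes and 32.9% of those as bright.

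**Figure D2:**
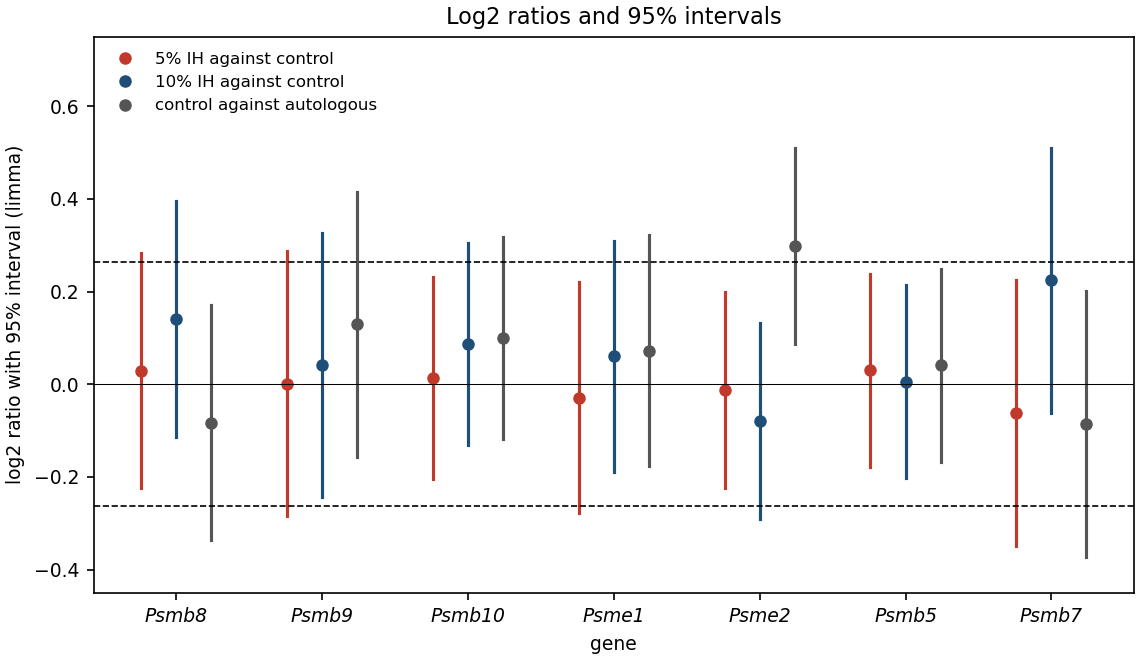
Log2 ratio of group means (points) with limma's 95% interval (bars) for 5 immunoproteasome and 2 constitutive catalytic genes in 3 comparisons, 2 arrays a group. Dashed lines mark the fold threshold of 0.263. The interval of Psme2 for control against autologous plasma (0.087 to 0.51) lies above 0, and each of the other intervals includes 0.

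The BN1 culture with 10% IH plasma stood apart for these genes, a pattern noticed after the values were seen and given as a description. Of the 46 members, 28 had their highest value of the 8 arrays there, among them 4 of 4 structural beta genes, 4 of 5 immunoproteasome genes, 8 of 14 non-ATPase genes, 3 of 7 alpha ring genes and 3 of 6 ATPases. The same array held the highest value of 17.5% of all genes and of 26.1% of genes at least as bright as the dimmest member. On it, the members' median deviation from their own mean over the 8 arrays was 0.112 and that of the immunoproteasome genes 0.197, against 0.030 for genes as bright. On the other 7 arrays the members' median deviation ran from -0.054 to 0.029. Psmd8, a non-ATPase lid subunit, measured 8.27 to 8.43 on the other 7 arrays and 8.68 on this one. Psmb2, a structural beta subunit, measured 9.34 to 9.52 on the others and 9.70 here. Platelet markers had their highest mean there too, 9.61 against 9.24 to 9.54 on the others (4 of 5 list genes measured). So did T and B cell markers (9.30 against 9.05 to 9.27 and 10.82 against 10.52 to 10.79). Within these lists only Itga2b (platelet), Cd3d, Cd3e and Lck (T cell), and Cd79b and Cd74 (B cell) had their own highest value there. The B cell marker Blnk had its lowest there (9.62). Of the lists of genes around the proteasome described below, the partners had their highest mean there (9.01 against 8.83 to 8.98). So did the interferon response genes (8.29 against 8.03 to 8.25), while the ubiquitin and peptide loading genes did not. The part of these markers and lists in the result was not tested.

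**Figure D3:**
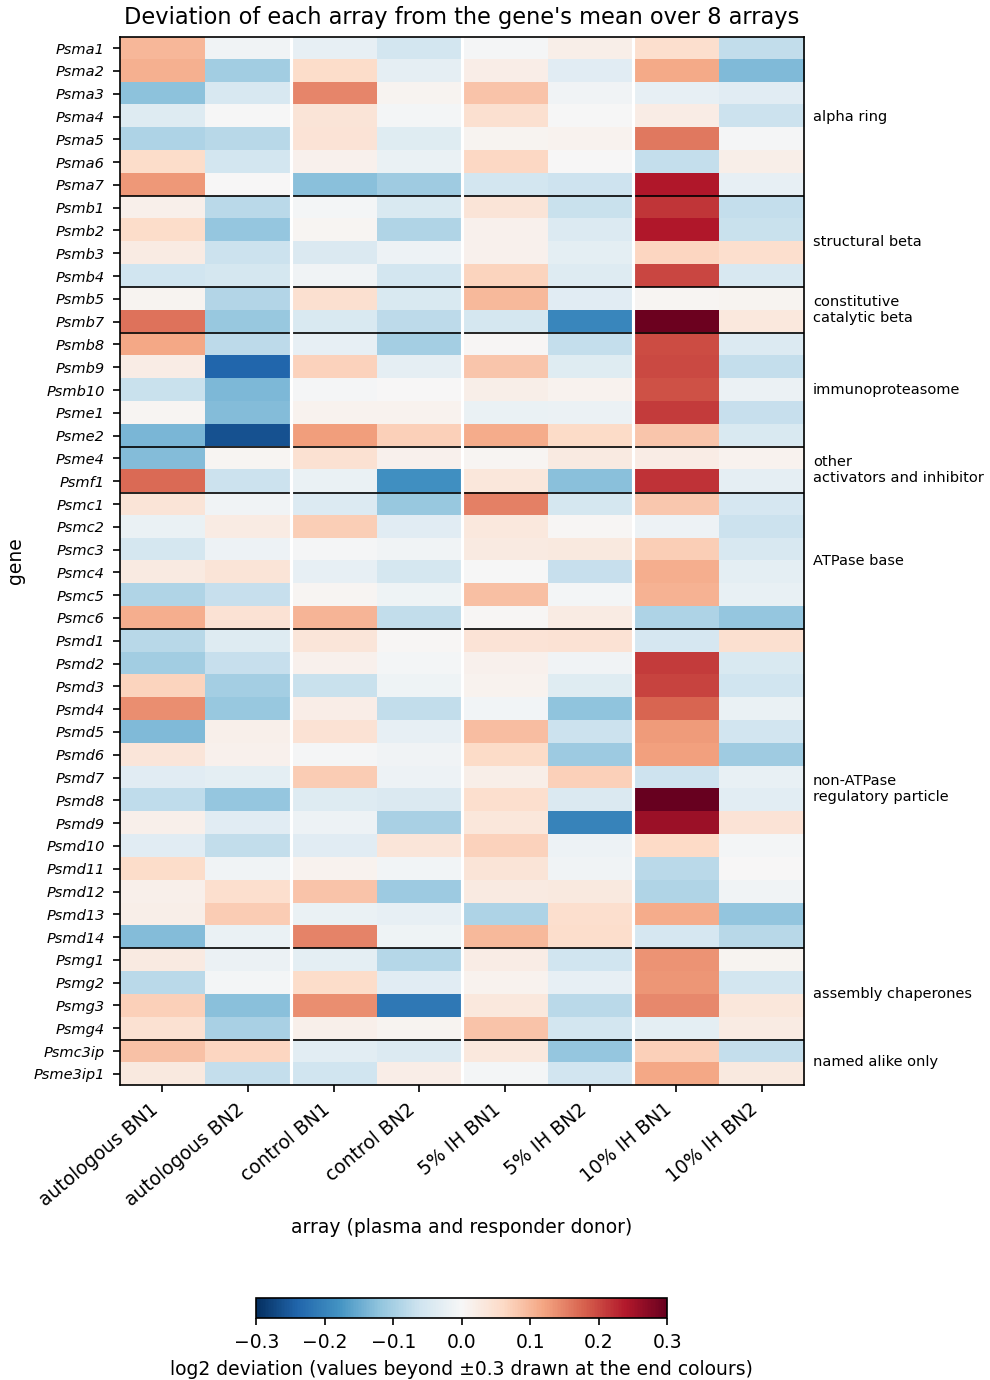
Deviation of each array (columns, by plasma and donor) from the gene's mean over the 8 arrays (colour, log2 units) for the 46 genes (rows, grouped by role). The column of BN1 cells with 10% IH plasma is the darkest red: 28 of 46 genes have their highest value there, while others, such as Psma3, Psmc6 and Psmd14, do not.

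The donors were compared within each plasma as a description, with no test. BN1 was higher in 29 of 46 members with autologous, 40 with control, 36 with 5% IH and 39 with 10% IH plasma, with median differences of 0.048, 0.041, 0.055 and 0.133. BN1 was higher in 57.2%, 52.1%, 52.3% and 54.3% of all genes and in 55.4%, 65.0%, 63.6% and 66.9% of genes as bright, so that the autologous count is near the background. With 10% IH plasma 6 members were higher in BN1 by more than 0.263: Psmb1, Psmb2, Psmb9, Psme1, Psmd3 and Psmd8. With control and autologous plasma 1 member each was (Psmg3 and Psmb7), and none with 5% IH. The share of all genes past it was 6.88% with 10% IH, 3.45% with control, 8.24% with autologous and 4.23% with 5% IH plasma. The residual spread of the members between donors was small: their median residual SD was 0.0747, against 0.0990 over all genes and 0.0799 over genes as bright.

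Set directly against 10% IH plasma, 5% IH plasma gave 1 member that met the criterion, against 4.48% of all genes. Psmb7 was lower by the criterion, at 7.58 and 7.44 with 5% IH against 7.92 and 7.66 with 10% IH. The log2 ratio was -0.29 (-0.35 in BN1 and -0.23 in BN2, standard error 0.126), with a limma interval of -0.57 to 0.00063 that includes 0. The 1-sided permutation p in the Rank Product was 0.026, and the adjusted p in limma 0.981. Without the BN1 array of 10% IH the log2 ratio was -0.16, and without the BN2 array of 5% IH -0.22, both short of the threshold. Psmd9, a base assembly factor, came next at -0.23 (7.61 and 7.37 with 5% IH, 7.83 and 7.61 with 10% IH). Psmb5 moved by 0.024, with an interval of -0.18 to 0.23 inside the threshold, and the 4 structural beta genes had ratios from -0.10 to -0.062. The immunoproteasome median was -0.073, with -0.17 in BN1 and 0.036 in BN2. The interval lay inside the threshold for 17 members, against 23.5% of all genes and 34.2% of those as bright.

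The largest log2 ratio of any member was that of Psme2 between SD and autologous plasma. Psme2, of the interferon-inducible activator cap, measured 9.65 and 9.52 with autologous plasma, 9.91 and 9.86 with control, 9.90 and 9.84 with 5% IH and 9.87 and 9.74 with 10% IH. Its value was lower on both autologous arrays than on any of the 6 SD arrays. Psme2 rose by the criterion with control plasma, by 0.30 (1.23-fold; standard error 0.0931, interval 0.087 to 0.51; BN1 0.26, BN2 0.33), and with 5% IH plasma, by 0.28 (interval 0.073 to 0.50). With 10% IH plasma the ratio was 0.22 (interval 0.0073 to 0.43), under the fold threshold. The adjusted p of limma was 0.254, 0.270 and 0.500 in these comparisons, which share the autologous arrays. Without the BN2 autologous array the ratios to it were 0.24 with control and 0.22 with 5% IH, under the threshold. Psme2 was also not called with control without the BN1 control array (0.27), nor with 5% IH without the BN1 (0.26) or the BN2 (0.31) array of 5% IH.

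Of all genes, 10.1% met the criterion with control, 10.4% with 5% IH and 9.01% with 10% IH against autologous plasma, where 1, 1 and 0 of the 46 members did. Psme2 was the only member with an unadjusted limma p under 0.05, in each of the 3 comparisons, and 0 members had an adjusted one. The intervals of 14, 13 and 14 members lay inside the fold threshold, against 20.6%, 20% and 20.1% of all genes (29.3%, 28.6% and 28.5% of genes as bright). The immunoproteasome genes had a median ratio to autologous plasma of 0.10, 0.11 and 0.17 with control, 5% IH and 10% IH, and the 39 other subunits and assembly factors one of 0.0067, 0.018 and 0.056. With 10% IH plasma all 5 were above autologous plasma in both donors. So were 19 of the 39 others, 4 of 4 structural beta genes among them, and 24.5% of all genes. With control plasma Psmb9 was higher by 0.13, Psmb10 by 0.10 and Psme1 by 0.072, each with an interval that includes 0, while Psmb8 was lower (-0.082). Psmb8 measured 10.97 and 10.78 with autologous plasma, Psmb9 10.01 and 9.75, Psmb10 9.18 and 9.11, and Psme1 11.40 and 11.26. Outside the immunoproteasome, Psma7 had the lowest ratio of control to autologous at -0.18 (10.61 and 10.48 with autologous plasma) and Psma3, of the alpha ring, the highest at 0.16. A brighter probe set that carries the symbols Psma3l and Psma3 (mean log2 value 10.19, against 8.41) had a ratio of 0.046. Psmb5 measured 10.24 and 10.15 with autologous plasma and Psmb7 7.79 and 7.52, and both overlapped their control values.

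Markers of several cell types differed between the same cultures. For the 7 monocyte markers, the mean log2 value was 5.52 and 5.93 with autologous plasma and 7.74 to 8.14 with the SD plasmas. With control plasma 6 of 7 rose by the criterion, by a median of 2.08 over the 7, and Cd14, the monocyte co-receptor for lipopolysaccharide, by 5.28. The exception was Fcgr3a (-0.048). Of 4 measured neutrophil markers 3 rose by the criterion (median 0.33 over the 4, with 0.65 in BN1 and 0.21 in BN2). Only 2 of the 4 were higher in both donors. The 4 measured B cell markers had ratios above 0 in both donors (median 0.12) and the 4 platelet markers ratios below 0 in both (median -0.15), with none called. Of the NK cell markers 1 of 6 fell, of the red cell markers 1 of 3, and of the T cell markers 0 of 8 changed. Over all genes, 10.1% met the criterion with control against autologous plasma. In such mixed cells, fewer cells of a type and less RNA per cell cannot be told apart, and the part of these markers in the Psme2 result was not tested.

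**Figure D4:**
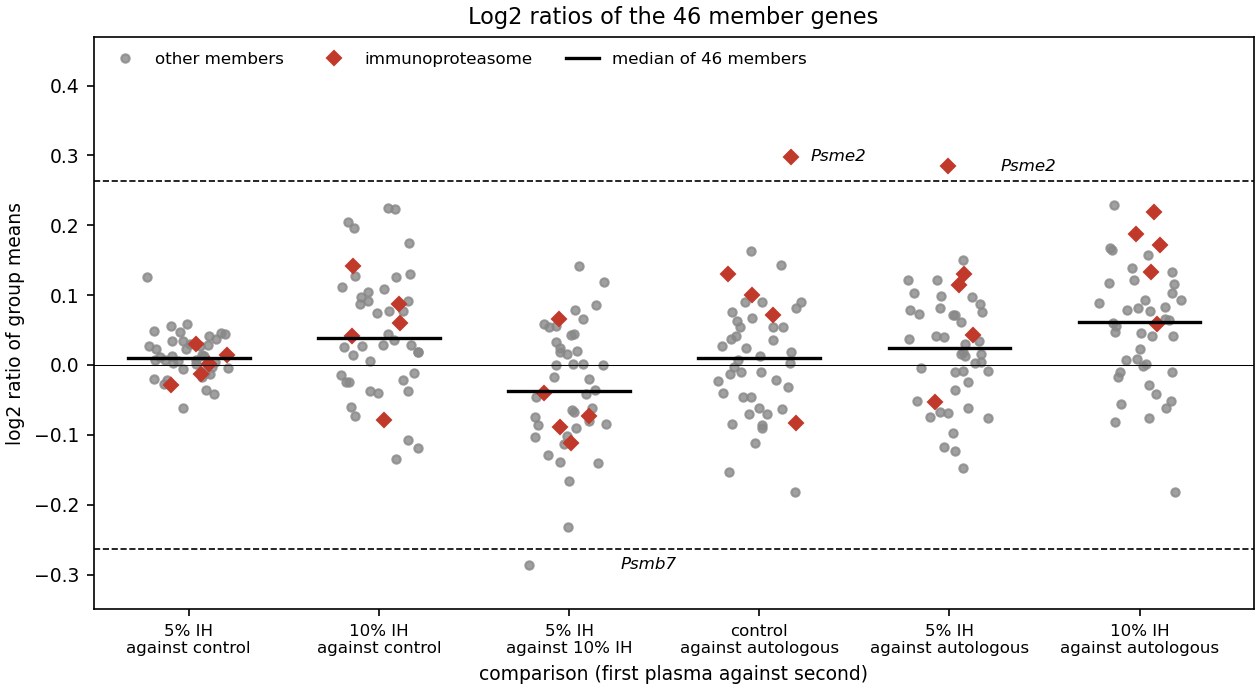
Log2 ratio of group means (vertical axis) of the 46 genes in 6 comparisons (horizontal axis). Red diamonds are the 5 immunoproteasome genes, grey points the other members, black lines the median of all 46, and dashed lines the fold threshold of 0.263. Psme2 lies past it with control (0.30) and 5% IH (0.28) against autologous plasma and Psmb7 with 5% against 10% IH (-0.29), while no gene does in the other comparisons.

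Genes around the proteasome were read from 4 lists that hold no member. With 5% IH against control plasma, 0 of 12 measured partners and regulators, 0 of 8 genes of ubiquitin supply and shuttling, 0 of 10 of peptide loading and 0 of 14 of the interferon response met the criterion. With 10% IH against control, 1 rose among the partners, 1 fell among the ubiquitin genes, 1 rose among the interferon genes and 0 changed in peptide loading. Over all genes, 2.5% met the criterion with 5% IH and 4.3% with 10% IH against control. In lists this short a count of 1 cannot be told from such a share. Akirin2, which carries proteasomes into the nucleus, was higher by 0.30 (BN1 0.67, BN2 -0.069). Ubd, the ubiquitin-like modifier FAT10 that delivers proteins to the proteasome, was lower by a log2 ratio of -0.79 (8.84 and 8.55 with control, 8.08 and 7.73 with 10% IH), in cells of both donors. Ifngr1, an interferon gamma receptor chain, was higher by 0.31 (BN1 0.48, BN2 0.13). These 3 genes also met the criterion with 5% against 10% IH, where 4.48% of all genes did. Ubd was higher by 0.59, and Akirin2 and Ifngr1 were lower (-0.31 and -0.32). None of the 3 had an adjusted p under 0.05 in limma in these comparisons.

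With control against autologous plasma, 2 of 12 partners rose, Nfe2l1 (0.43) and Nfe2l2 (0.48), the transcription factors known to drive proteasome genes. In limma 0 of the 12 had an adjusted p under 0.05. Ubd rose by 2.51, from 6.27 and 6.12, as 1 of 8 ubiquitin genes. Of peptide loading, 2 of 10 rose, the chaperones Calr (0.44) and Pdia3 (0.32), and Tap1 and Tap2, the peptide transporter that lies beside Psmb8 and Psmb9 in the genome, had ratios of 0.067 and 0.042. Of interferon genes, 4 of 14 rose: Irf1 (0.31), Irf7 (0.45), Ifngr2 (0.70) and Gbp2 (0.39). The counts that rose were 2, 1, 2 and 4 with 5% IH and 3, 2, 2 and 3 with 10% IH against autologous plasma, and none fell. In limma, the counts with an adjusted p under 0.05 were 0, 1, 0 and 1 with control against autologous plasma. They were 1, 1, 0 and 2 with 5% IH and 0, 1, 0 and 1 with 10% IH. Of all 31042 probe sets, 551, 609 and 389 had such a p in these comparisons. Over all genes, 10.1%, 10.4% and 9.01% met the criterion with control, 5% IH and 10% IH against autologous plasma, rises and falls together.

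For 9 members, 14 further probe sets were on the array, and none went past the fold threshold in the direction opposite to that of the probe set used. Psmc6, an ATPase of the base, and Psmd14 were chosen for description after their values were seen. The second Psmc6 probe set, nearly as bright as the one used (mean log2 value 8.14 and 8.39), was lower with 10% IH than with control plasma by the criterion (-0.26, against -0.12 on the one used), and also lower than with autologous plasma (-0.30, against -0.18). A dimmer probe set of the gene was higher with 5% than with 10% IH (0.31, against 0.12). The dimmest probe set of Psmd14 was higher with control than with autologous plasma (0.30, against 0.14), and so with 5% IH (0.27, against 0.15). In each of these genes the call thus depended on the probe set.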

How the data were processed

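PBMCs of 2 donors in 4 plasmas were measured on 8 Affymetrix Rat Genome 230 2.0 arrays. The authors quantified the images in Expression Console and normalized them by Robust Multichip Analysis (background correction, quantile normalization across arrays, 1 summary per probe set). The deposited log2 values were used. The submitters' processing notes list Partek without saying what it did. The 2 arrays a group limit the precision. Array medians were 5.53 to 5.56, and no further scaling was applied.

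Of 31042 probe sets, 20826 had 1 symbol, and the brightest such probe set stood for a gene. All 46 members matched RefSeq by gene ID. The members and lists were chosen with earlier results of these data known. The Rank Product was reimplemented with all 4 between-array ratios and 100 permutations within arrays. It called 964 probe sets with 5% IH against control, as many as the study reports. With 10% IH against control it called 2157, more than the study reports. limma 3.58.1 (R 4.3.3) was fitted over all 8 arrays in 4 groups, with no donor term, as the study's methods name none. Members were named by fixed rule (the immunoproteasome genes, Psmb5, Psmb7, those meeting the criterion, the brightest and dimmest), and others are examples chosen after their values were seen. Steps were tested on simulated data with no donor effect and with added changes larger than any member's ratio. Changes as small as those of the members were not tried.

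Arrays with the same number share the BN donor, which pairs them. The BN1 minus BN2 differences correlated across probe sets at 0.24 (control and 5% IH), 0.059 (control and 10% IH) and 0.165 (5% and 10% IH), and at -0.0039, -0.083 and -0.17 for autologous with control, 5% IH and 10% IH. Alternatives were ratios within donor or donor in the fit, a 2-sided p, limma p, a filter on the dimmest 40%, scaling again, averaged probe sets per gene, an intensity trend, the compared arrays alone and each array left out.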

Additional observations from a re-analysis of the deposited data

Results flagged for a closer look

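Psmb7, a constitutive catalytic subunit, was flagged because it met the criterion in the direct comparison of the IH plasmas. Against control plasma it met the criterion with neither IH plasma, which was not part of the rule. Its log2 ratio of 5% to 10% IH was -0.29, with a limma interval of -0.57 to 0.00063 that includes 0. As 1 call among 46 members, where 4.48% of all genes were called, it does not show that the responses differ. No cause was tested. Groups of 2 arrays are too small for a test of single outlying arrays.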

How the results depend on the processing

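The count of members called by limma was 0 in all 6 comparisons and under each of its alternatives, the replicate block (donor in the fit) included. With the replicate block in the Rank Product (ratios within donor), the pairing kept the counts at 0, 0, 1, 1, 1 and 0 in the order 5% IH and 10% IH against control, 5% against 10% IH, then control, 5% IH and 10% IH against autologous. A 2-sided p gave 0 for the 3 comparisons with 1 call, and limma's unadjusted p with the fold threshold gave 0 for 5% against 10% IH. With each array left out the counts were 0 to 0, 0 to 5, 0 to 4, 0 to 1, 0 to 1 and 0 to 1. The highest came without the BN2 array of 10% IH, when Psma7, Psmb7, Psmd8, Psmd9 and Psmf1 met the criterion against control and 4 members (Psma7, Psmb7, Psmd8 and Psmd9) against 5% IH, while 2 (Psmf1 and Psmg3) did against control without its BN1 array. Psmb7 with Psmd9 made 2 calls for 5% against 10% IH without the BN1 array of 5% IH, and Psmd8 was 1 call against autologous plasma without the BN2 array of 10% IH.

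Median ratios of all members with each array left out ran, in the same order, from -0.014 to 0.039, -0.017 to 0.13, -0.13 to 0.043, -0.038 to 0.052, -0.025 to 0.058 and -0.0032 to 0.12. Those of immunoproteasome genes ran from -0.030 to 0.017, -0.080 to 0.19, -0.18 to 0.051, 0.0034 to 0.14, 0.0018 to 0.15 and 0.036 to 0.28. So the sign of the members' median rests on single arrays in every comparison. Beyond that, the members' median for control against autologous was 0.022 with quantile normalization again and -0.0072 with median centring (main 0.010), and for 5% IH against autologous 0.031, 0.015 and, with probe sets averaged per gene, 0.017 (main 0.024). The cause was not tested.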
